A study of Homo sapiens with 14 samples.

Results

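The change in translational efficiency between OCI-AML2 cells with intact RUNX1 and the mutant line F3 was measured in 8 of the 14 libraries of the study. OCI-AML2 is an established human acute myeloid leukaemia line, and F3 carries the nonsense change R174* on 1 of its RUNX1 alleles. Each genotype was sequenced as total RNA and as RNA captured by RiboLace, with 2 libraries in each of the 4 groups. These 8 libraries were chosen by their labels alone, as the libraries needed for the interaction of genotype and assay. Both RiboLace groups and the total RNA of the parent line are labelled as untreated. Total RNA of F3 is labelled as an 8 h control, although its library names read 0 h, and the culture notes name DMSO as the control of 100 nM homoharringtonine (HHT), an inhibitor of translation elongation. That difference in handling and the genotype cannot be told apart in total RNA. All groups share the same culture medium. F3 is 1 mutant line and the parent line is the only wild type, and nothing in the labels says that replicate libraries came from separate cultures, so p-values measure only the spread between these libraries.

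RiboLace isolates ribosomes that are making protein with a puromycin analogue on beads, since puromycin enters the active ribosome in place of a transfer RNA. Reads of an mRNA in that fraction, set against its reads in total RNA, give a relative measure of how much of the mRNA is being translated. RUNX1 binds DNA and controls genes of blood formation, and nonsense changes in it recur in myeloid leukaemia. For each gene, the TE difference in the text is the log2 ratio of RiboLace to total RNA in F3 minus the same log2 ratio in wild type. A TE difference of -1 therefore means that the ratio was 2-fold lower in F3. Because each library is scaled to its own content, the values are relative to the other RNAs of the fraction, and a change of total protein synthesis would not be seen.

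Total RNA libraries held 19296906 to 21334260 counts. The RiboLace libraries were shallower, with 2034796 and 1054581 counts for wild type but 1192811 and 465052 for F3, and the second F3 library limits the precision of every ratio. Replicates of each group differed by more than sampling noise. RiboLace libraries differed from total RNA in content. MIR6087, a short GC-rich locus annotated as a microRNA, took 4.64% to 11.4% of RiboLace counts and had at most 2 reads in total RNA libraries. Of the defining myeloid markers, SPI1, CEBPA, LYZ, CSF3R, PTPRC, CD33 and MPO were read in all 8 libraries, and ANPEP had at most 8 reads in any. HBB, PF4 and EPCAM had no read, CD3E had 1 read in 1 library, and ITGA2B and COL1A1 were read at low levels.

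Of 15338 genes tested, 229 (1.49%) passed the threshold for the TE difference, an adjusted p under 0.05 in edgeR's quasi-likelihood test. The ratio was higher in F3 for 74 genes, which is 0.482% of those tested, and lower for 155, which is 1.01%. At an unadjusted p under 0.05 there were 2541 genes. Protein-coding genes made up 59 of the 74 and 151 of the 155. The genes that fell had a median TE difference of -1.45, and those that rose a median of 1.34, against -0.04 over all genes. In 219 of the 229 genes each group had at least 4 reads, and no value is given for the other 10.

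The change lay mostly on the RiboLace side. RiboLace RNA rose in 67 of the 74 genes with a higher ratio, where 5.87% of all genes rose in that fraction. It fell in 131 of the 155 genes with a lower ratio, where 6.94% of all genes fell. Total RNA rose in 42 of these 155, where 4.97% of all genes rose, and fell in 7, where 3.27% fell. In either direction, 12.8% of all genes passed in RiboLace and 8.24% in total RNA. The RiboLace difference and the total RNA difference are the parts of the TE difference, so these counts describe where it lay and are no separate test. For all 229 genes the library ratios of F3 and wild type did not overlap, as was also true of 16.5% of all genes in the upward and 21.1% in the downward direction.

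**Figure D1:**
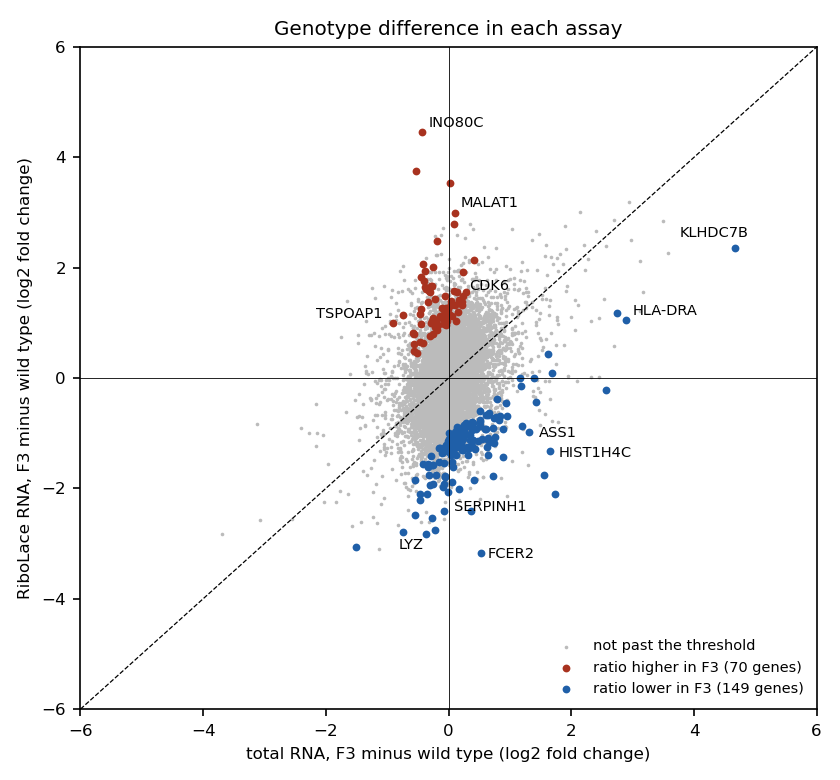
Genotype difference in total RNA (x axis) and in RiboLace RNA (y axis), both as log2 fold change of F3 over wild type, for the genes with at least 4 reads in each group. Genes past the threshold for the TE difference are coloured, and the dashed line marks equal change in both assays; most coloured genes lie far from the line along the RiboLace axis, with ASS1 and HIST1H4C higher in total RNA and lower in RiboLace.

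RUNX1 itself (chr21) did not pass the test for the TE difference. Its normalised read counts (CPM, scaled to library size) in total RNA were 131 and 120 in wild type and 74.0 and 77.2 in F3, a fall of 0.73 on the log2 scale (adjusted p = 0.00294). In RiboLace they were 148 and 171 in wild type and 145 and 136 in F3, a log2 difference of -0.17 (adjusted p = 0.606). RUNX1 RNA was thus lower in both F3 total RNA libraries than in either wild type library, while its RiboLace values lay close together. The TE difference was 0.57 ± 0.24 (SE, adjusted p = 0.225). Gene counts do not separate the mutant from the intact allele, so these values do not check the genotype label. With total RNA of the other mutant line, G7, as the match, the TE difference of RUNX1 was -0.04. Among the 7 genes of the RUNX family and CBFB none passed, and the median was 0.32. RUNX2 had the most RiboLace reads of them, 3912 to 5532 CPM in RiboLace over both genotypes against 51.3 to 95.4 in total RNA, and its TE difference was -0.59 (adjusted p = 0.345). Its log2 ratio of RiboLace to total RNA was 6.27 in wild type and 5.68 in F3, against medians of 0.01 and -0.02 over all genes. Whether these reads came from translated RUNX2 mRNA was not tested.

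CDK6, a kinase that drives entry into the cell cycle and a recurrent dependency of myeloid leukaemia, was the only one of 10 leukaemia genes fixed for description that passed. Its RiboLace CPM were 231 and 304 in wild type and 631 and 871 in F3. Its total RNA CPM were 168 and 201 in wild type and 239 and 196 in F3. Both F3 RiboLace libraries were above both wild type ones, whereas the total RNA values overlapped. The TE difference was 1.26 ± 0.28 (SE, adjusted p = 0.0297). The call was lost in 10 of 21 alternatives, among them without the second F3 RiboLace library (adjusted p = 0.157), and the value stayed between 0.929 and 1.502. The apoptosis inhibitor BCL2 had a TE difference of 0.87 ± 0.26 (SE, adjusted p = 0.0920), and its RiboLace RNA rose by 0.79 (adjusted p = 0.011). For MCL1, another inhibitor of apoptosis, the TE difference was 0.14 (adjusted p = 0.853), and for BCL2L1 it was 0.77 (adjusted p = 0.361). None of the 17 BCL2 family genes tested passed. The transcription factors MYC, MYB, SPI1 and CEBPA had TE differences of -0.60, -0.22, -0.54 and 0.02, and none passed. ATF4, which is translated through upstream reading frames during stress, stood at -0.10 (adjusted p = 0.947).

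Genes that fell included LYZ, SERPINH1 and ITGB2. LYZ encodes lysozyme, a bactericidal enzyme of granulocytes and monocytes. Its RiboLace CPM were 545 and 281 in wild type and 58.8 and 66.9 in F3, while in total RNA there were 326 and 352 CPM for wild type against 287 and 294 for F3. It was several-fold lower in both F3 RiboLace libraries and slightly lower in both F3 total RNA libraries, a TE difference of -2.53 ± 0.35 (SE). SERPINH1, a collagen chaperone of the endoplasmic reticulum, had RiboLace CPM of 263 and 183 in wild type and 41.5 and 44.6 in F3. In total RNA it had 117 and 132 in wild type and 115 and 122 in F3. Its TE difference was -2.33 ± 0.29 (SE, adjusted p = 0.000364). ITGB2, the common beta chain of leukocyte integrins, had RiboLace CPM of 156 and 137 in wild type and 34.6 and 36.5 in F3, with total RNA between 107 and 120 in all 4 libraries. Its TE difference was -2.06 ± 0.27 (SE). With total RNA of G7 as the match, LYZ stood at -1.07 (adjusted p = 0.123) and ITGB2 at -1.11 (adjusted p = 0.0612). For SERPINH1 and ITGB2 the total RNA values of the genotypes overlapped, and for none of the 3 genes did the RiboLace values.

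**Figure D2:**
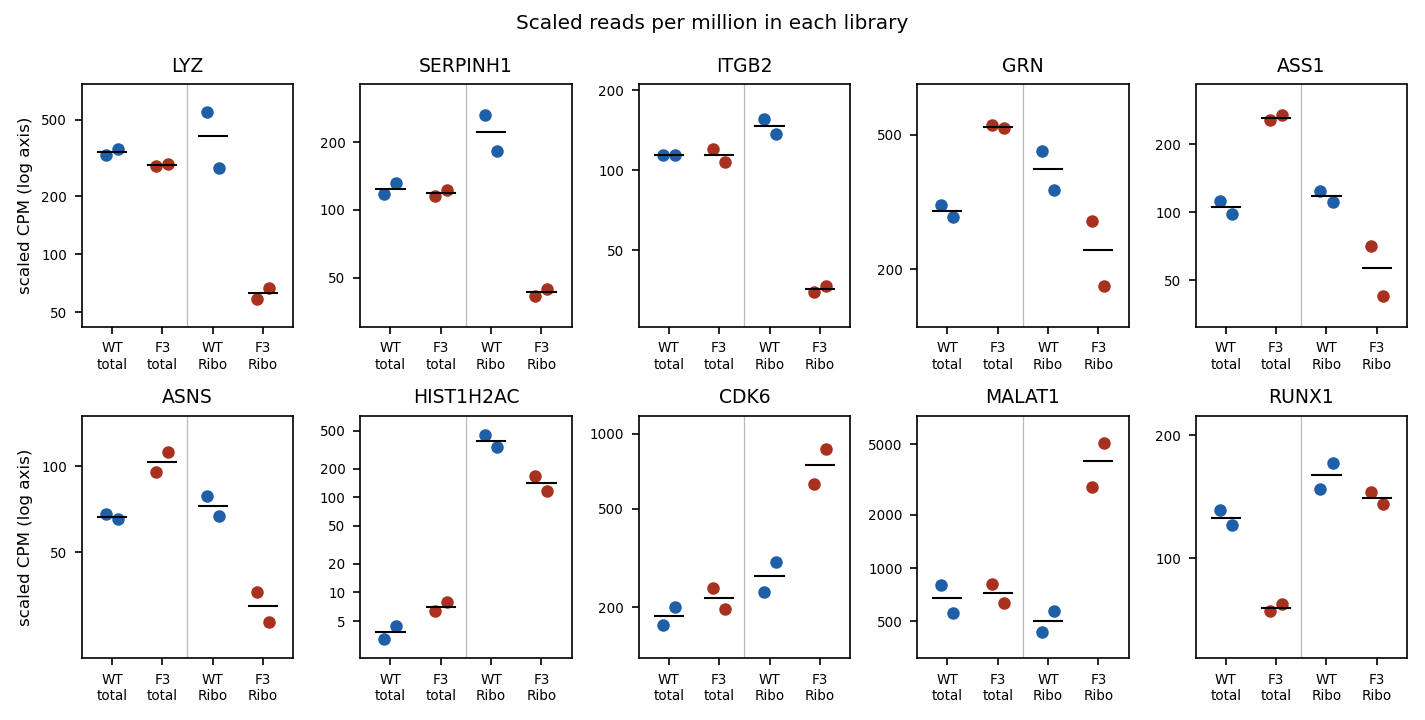
Scaled CPM (log axis) of 10 genes in each library, with total RNA left of the grey line and RiboLace right of it, wild type in blue and mutant F3 in red; black bars are means of 2 libraries. In RiboLace, LYZ, SERPINH1 and ITGB2 are lower in both F3 libraries and CDK6 and MALAT1 higher, with little change in total RNA, whereas ASS1 and ASNS are higher in F3 total RNA and lower in F3 RiboLace.

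The coding starts of SERPINH1 and ITGB2 are shown because proteins bound for the secretory pathway begin with a hydrophobic signal peptide, and genes with such a start made up many of the falls. Each line gives the first 35 codons of 1 GENCODE transcript, 5′ to 3′, and capitals mark the most hydrophobic window of 11 codons. The genes lie on GRCh38 at chr11:75562056-75572783 (SERPINH1, plus strand) and chr21:44885953-44931989 (ITGB2, minus strand).
SERPINH1: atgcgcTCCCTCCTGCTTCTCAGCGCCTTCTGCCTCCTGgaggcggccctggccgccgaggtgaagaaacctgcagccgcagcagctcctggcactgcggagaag
ITGB2: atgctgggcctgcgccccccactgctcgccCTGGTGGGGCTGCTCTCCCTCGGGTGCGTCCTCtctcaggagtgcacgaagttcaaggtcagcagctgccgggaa

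A gene was counted as having a hydrophobic start when an 11-residue window within the first 35 residues had a mean Kyte-Doolittle hydropathy of at least 2.0. This class was defined after the falls had been seen and is a description. Of 1768 such genes tested, 62 fell (3.51%) and 5 rose, with a median TE difference of -0.32. Of 7674 genes with no hydrophobic stretch, 65 fell (0.85%) and 43 rose, with a median of -0.03. Genes with a hydrophobic stretch of 19 residues only further on, such as many multi-pass membrane proteins, had a median of -0.03, and 23 of 2334 fell. Among the 12 largest falls named by rule, 8 had a hydrophobic start, and among the 12 largest rises 1 did. SERPINH1 and ITGB2, with a window mean of 2.57 each, lay well inside the limit. GRN, which encodes the secreted lysosomal protein progranulin, had a mean of 1.91 and so was not counted, although it also fell (-1.59 ± 0.28 SE). The median ratio of the class was not level within a genotype, at 0.27 and 0.04 in the wild type libraries and -0.10 and -0.29 in those of F3.

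Other large falls named by rule included FCER2, the low-affinity IgE receptor, with RiboLace CPM of 30.1 and 23.2 in wild type and 1.73 and 6.08 in F3. Its TE difference of -3.70 ± 0.53 (SE) rests on 5 reads in F3 RiboLace. TGFBI, a secreted matrix protein, fell by 2.47 ± 0.45 (SE) on the log2 scale, and SERPINF1, a secreted protease inhibitor family member, by 2.50 ± 0.49 (SE). CD58, a ligand of the T-cell protein CD2, fell by 2.27 ± 0.55 (SE), and HAUS1, a spindle component, by 2.26 ± 0.45 (SE). ITPRIP had a TE difference of -2.78 ± 0.62 (SE). These values also rest on few reads in F3 RiboLace, 5 for ITPRIP, 8 each for CD58 and TGFBI, 9 for HAUS1 and 10 for SERPINF1. KLHDC7B differed from these in that it rose in both assays. Its total RNA CPM were 1.06 and 1.37 in wild type and 30.8 and 32.1 in F3, and its RiboLace CPM 4.93 and 3.87 against 19.9 and 30.4. Total RNA thus rose by 4.67 and RiboLace by 2.36, which gives a TE difference of -2.31 ± 0.57 (SE, adjusted p = 0.0433). With total RNA of G7 as the match it stood at -0.46 (adjusted p = 0.787), and the call was lost in 13 of 20 alternatives.

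Genes of monocytes and lysosomes made up a further group of falls. Of 23 monocyte genes tested, 5 fell, where 1.01% of all genes fell, and none rose, with a median TE difference of -1.47. They included the receptor TLR2 (-1.28), the inhibitory receptor LILRB4 (-1.82), LST1 (-1.56) and CSF1R, the receptor of macrophage colony-stimulating factor. CSF1R had 1 read in F3 RiboLace and no value is given. In total RNA 5 of the 23 monocyte genes rose and 8 fell, and in RiboLace 12 fell and none rose. The falls in TE difference thus held both directions of total RNA, with LILRB4 higher in F3 by 0.89 and LST1 lower by 1.51. Of 32 lysosome genes, 4 fell, the proteases CTSB (-1.17) and CTSL (-1.39), the membrane protein CD63 (-1.16) and the cholesterol carrier NPC2 (-1.49). CTSL did not pass in RiboLace (-0.46, adjusted p = 0.297) and rose in total RNA by 0.94 (adjusted p = 0.000752). The median of the list was -0.88, and 31 of its 32 members were negative, where 52.5% of all genes were. Of 19 granule protein genes, LYZ, the protease inhibitor CSTA (-1.55) and the protease CTSC (-1.26) fell, and the median was -0.53. Of 30 genes of actin and adhesion, ITGB2 and WAS, the actin regulator lost in Wiskott-Aldrich syndrome (-1.21), fell. The median lysosome ratio was 0.35 and -0.16 in the wild type libraries and -0.47 and -0.82 in F3. Both F3 ratios lay below both of wild type, but the wild type pair was further apart than its lower value was from F3. The 14 myeloid markers matched 15 gene IDs in the table, of which 10 were tested and LYZ fell. They summed to 1418 to 1546 CPM in total RNA, 1506 to 1802 in wild type RiboLace and 924.6 to 1018 in F3 RiboLace. Adherent cell markers summed to 92.2 and 108.1 CPM in wild type and 176.8 and 156.4 in F3 total RNA, and to 66.7 to 103.2 in RiboLace. Most of these sums came from PECAM1, with scaled total RNA CPM of 82.1 and 93.1 in wild type and 163.7 and 148.4 in F3. Of the 12 adherent markers 3 were tested, and PECAM1 alone passed (TE difference -1.52). Lymphoid markers summed to 88.2 to 162.2 CPM over all libraries, erythroid markers to at most 38.5 and megakaryocyte markers to at most 17.6. The part of cell state in these falls was not tested.

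Of 9 MHC class II genes tested, 6 rose in total RNA and none fell, while in RiboLace 1 rose and 1 fell. HLA-DRA, a chain of the class II molecule that presents peptides to helper T cells, had total RNA CPM of 5.47 and 6.75 in wild type and 43.3 and 47.9 in F3. Its RiboLace CPM were 14.2 and 8.70 in wild type and 30.3 and 14.2 in F3. Total RNA did not overlap between genotypes, whereas RiboLace did, and the TE difference was -1.85 ± 0.43 (SE, adjusted p = 0.0342). CD74, the invariant chain of the same molecules, fell by 1.28 in TE difference and fell in RiboLace by 0.67. With total RNA of G7 its TE difference was -0.55 (adjusted p = 0.336). None of the other 7 of 9 class II genes tested passed. Of 48 interferon-stimulated genes, 38 rose in total RNA and 15 in RiboLace. In TE difference 2 of them fell, IFI6 (-1.59) and BST2 (-1.33), which tethers budding virus, and the median of the list was -0.31, which ranged from -0.49 to 0.06 over the alternatives.

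ASS1 and ASNS, enzymes of amino acid synthesis, rose in total RNA and fell in RiboLace. ASS1 makes argininosuccinate in arginine synthesis. Its total RNA CPM were 113 and 98.5 in wild type and 257 and 269 in F3, and its RiboLace CPM 124 and 111 in wild type and 70.9 and 42.5 in F3. F3 was thus above wild type in total RNA and below it in RiboLace, without overlap in either. The TE difference was -2.29 ± 0.28 (SE, adjusted p = 0.000364), and over the alternatives it ranged from -2.78 to -1.24. ASNS, asparagine synthetase, had total RNA CPM of 68.0 and 65.2 in wild type and 95.7 and 112 in F3. Its RiboLace CPM were 78.9 and 66.7 in wild type and 36.3 and 28.4 in F3, a TE difference of -1.77 ± 0.29 (SE). ASNS is a known target of the amino acid response, and the part of that response in these values was not tested.

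Of the 38 tested genes with upstream reading frames or in the integrated stress response, the pathway through which ATF4 raises amino acid supply, 12 rose in total RNA and none fell. In RiboLace 1 rose and 5 fell. In TE difference 4 fell, ASNS, the mitochondrial enzyme PCK2 (-1.32), PHGDH of serine synthesis (-1.28) and SLC3A2, a subunit of amino acid transporters (-1.20), with a list median of -0.58. Aminoacyl-tRNA synthetases load transfer RNAs with amino acids. Of 22 tested, 4 fell, SARS (-1.42), CARS (-1.39), RARS (-1.18) and WARS, none rose, and 21 had a negative TE difference (median -0.59). The median ratio of the synthetases was -0.23 and -0.43 in wild type and -0.81 and -1.02 in F3. For the stress response list it was -0.01 and -0.21 in wild type and -0.89 and -1.20 in F3, so for both lists the genotypes stood further apart than the replicates.

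Among the 294 genes past the threshold in both the total RNA and the RiboLace difference, 22 had opposite directions. The TE difference is the RiboLace difference minus the total RNA difference, so it is no separate test that all 22 also passed for it. Total RNA rose and RiboLace fell in 19 of them, among them ASS1, ASNS, PCK2, CARS, LILRB4, CD74 and GRN. GRN had total RNA CPM of 309 and 286 in wild type and 533 and 524 in F3, and RiboLace CPM of 446 and 343 in wild type and 277 and 178 in F3. TSPOAP1, SNORD104 and SNORA71C went the other way. TSPOAP1 had total RNA CPM of 33.1 and 31.2 in wild type and 19.3 and 15.04 in F3, and RiboLace CPM of 29.6 and 30.9 in wild type and 51.9 and 74.95 in F3.

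Replication-dependent histones were lower in the F3 RiboLace fraction. They package new DNA, and their mRNAs typically end in a stem-loop in place of a poly(A) tail. Of 46 tested, 41 fell in RiboLace and none rose. In TE difference 10 fell, and all 37 members with at least 4 reads in each group were negative. The list median was -1.39. HIST1H2AC had RiboLace CPM of 446 and 339 in wild type and 166 and 118 in F3, and its total RNA CPM were 3.24 and 4.43 in wild type and 6.33 and 7.85 in F3. It was far lower in total RNA than in RiboLace in both genotypes, fell in RiboLace and rose in total RNA, a TE difference of -2.31 ± 0.31 (SE). HIST1H4C (-2.97), HIST1H2AG (-2.04), HIST1H2BD (-1.88) and HIST1H4I (-1.84) followed. Summed over the list, histones gave 17274 to 21617 scaled CPM in wild type RiboLace, 6235 to 9113 in F3 RiboLace and 71.2 to 97.7 in total RNA. The ratio of these genes thus has a small denominator, and how the RNA of either kind of library was selected is not given in the sources used here. DNA replication genes, also tied to S phase, moved otherwise. Of 56 tested, 24 fell in total RNA and 7 in RiboLace, none passed in TE difference, and the median was 0.12.

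The stem-loops of 4 histone genes that fell are shown because this element typically stands in for the poly(A) tail. Capitals mark the 16 letters that match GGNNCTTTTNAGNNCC, searched on the transcript strand in annotated 3′ UTRs on GRCh38. The genes lie at chr6:26124145-26139116, chr6:27133042-27135291, chr6:27138588-27139881 and, on the minus strand, chr6:27807444-27807931.
HIST1H2AC: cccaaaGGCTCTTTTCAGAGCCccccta
HIST1H2AG: accaacGGCTCTTTTCAGGGCCacccac
HIST1H4I: taaaaaGGCCCTTTTTAGGGCCcctaag
HIST1H2BL: cccaaaGGCTCTTTTCAGAGCCactcac
These letters were found in 16 of the 46 histones and in 25 of 11806 coding genes (0.212%). For 23 of the 46 the annotation holds no 3′ UTR to search. In HIST1H2AC and HIST1H2AG the stem-loop lies 43 and 50 bases after the stop codon. Their annotated 3′ UTRs are 1173 and 1827 bases long, so the transcripts used here do not end at it. Which transcript forms gave the reads was not tested.

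Ribosomal protein mRNAs were lower in RiboLace as a group. Of 79 cytosolic ribosomal protein genes, 44 fell in RiboLace and none rose, while in total RNA 1 fell. In TE difference 8 fell, and 75 of 79 were negative with a median of -0.75. RPL32, a protein of the large subunit, had RiboLace CPM of 780 and 491 in wild type and 263 and 221 in F3. Its total RNA CPM were 1803 and 1619 in wild type and 1669 and 1867 in F3. Total RNA overlapped and RiboLace did not, a TE difference of -1.43 ± 0.30 (SE, adjusted p = 0.0222). RPS24 (-1.19), RPL30 (-1.17), RPL36 (-1.15), RPS13 (-1.13), RPS25 (-1.13), RPLP2 (-1.12) and RPS19 (-1.12) also fell. Summed over the list, RiboLace held 42836 to 49369 scaled CPM in wild type and 25001 to 30718 in F3, and total RNA 98324 to 114323 over both genotypes. Ribosomal protein genes have processed pseudogenes of near-identical sequence, and how reads shared with them were counted is not given.

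Ribosomal protein mRNAs begin with a run of pyrimidines, the TOP motif, through which mTOR controls their translation. The starts of 4 genes that fell are shown to set this motif beside the change. Each line runs from 12 bases before to 18 bases after the start, from RefSeq on GRCh38, and capitals mark the pyrimidine run at or near the start. The regions are chr3:12841548-12841577 (minus strand), chr10:78033851-78033880, chr19:5690283-5690312 and chr19:41860243-41860272 (plus strand).
RPL32: ttacgacccatcagCCCTTgcgcgccaccg
RPS24: cgaatcgtggTTCTCTTTTCCTCCTTggct
RPL36: cgcggcgccagCCCTTCCgccacggccgtc
RPS19: aaccccgtcgTTCCCTTTCCCCTggctggc
A run of at least 8 pyrimidines was found at or near the start in 50 of 78 matched ribosomal protein genes (64.1%) and in 9.25% of 35116 promoters. It was found in 5 of the 8 that fell. Of those shown, RPS24 (16) and RPS19 (13) had such a run, whereas RPL32 (5) and RPL36 (7) fell short of it. The other 23 TOP mRNAs tested, which include translation factors, had a median TE difference of -0.16 and a median of 1328 RiboLace reads. Of these 1 fell, the snoRNA host SNHG1 (-1.30). Of 45 translation factors 1 fell, MCTS1 (-1.65), which acts in ribosome recycling, and the median was -0.19. None of 27 genes of the mTOR pathway passed (median -0.06).

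Several other lists had low medians with few or no members past the threshold. None of 73 nuclear genes of oxidative phosphorylation passed in TE difference, with 66 negative and a median of -0.63, whereas 45 of them fell in RiboLace and 9 in total RNA. None of 77 mitochondrial ribosomal protein genes passed (median -0.39), and 22 fell in RiboLace. None of 36 proteasome genes (median -0.40) and none of 29 genes of the unfolded protein response (median -0.35) passed. Of 26 heat shock genes, with a median of 1474 RiboLace reads, the co-chaperone BAG3 (-1.84) and HSPB1 (-1.38) fell. GPX4, the selenoprotein that repairs lipid peroxides, fell by 1.02 and was the only selenoprotein of 19 past the threshold, and UBE2C, which drives mitotic exit, fell by 1.62. Over the 34 lists apart from cell type markers, 29 had a median below that of all genes, 16 held only genes that fell and 16 held none that passed.

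**Figure D3:**
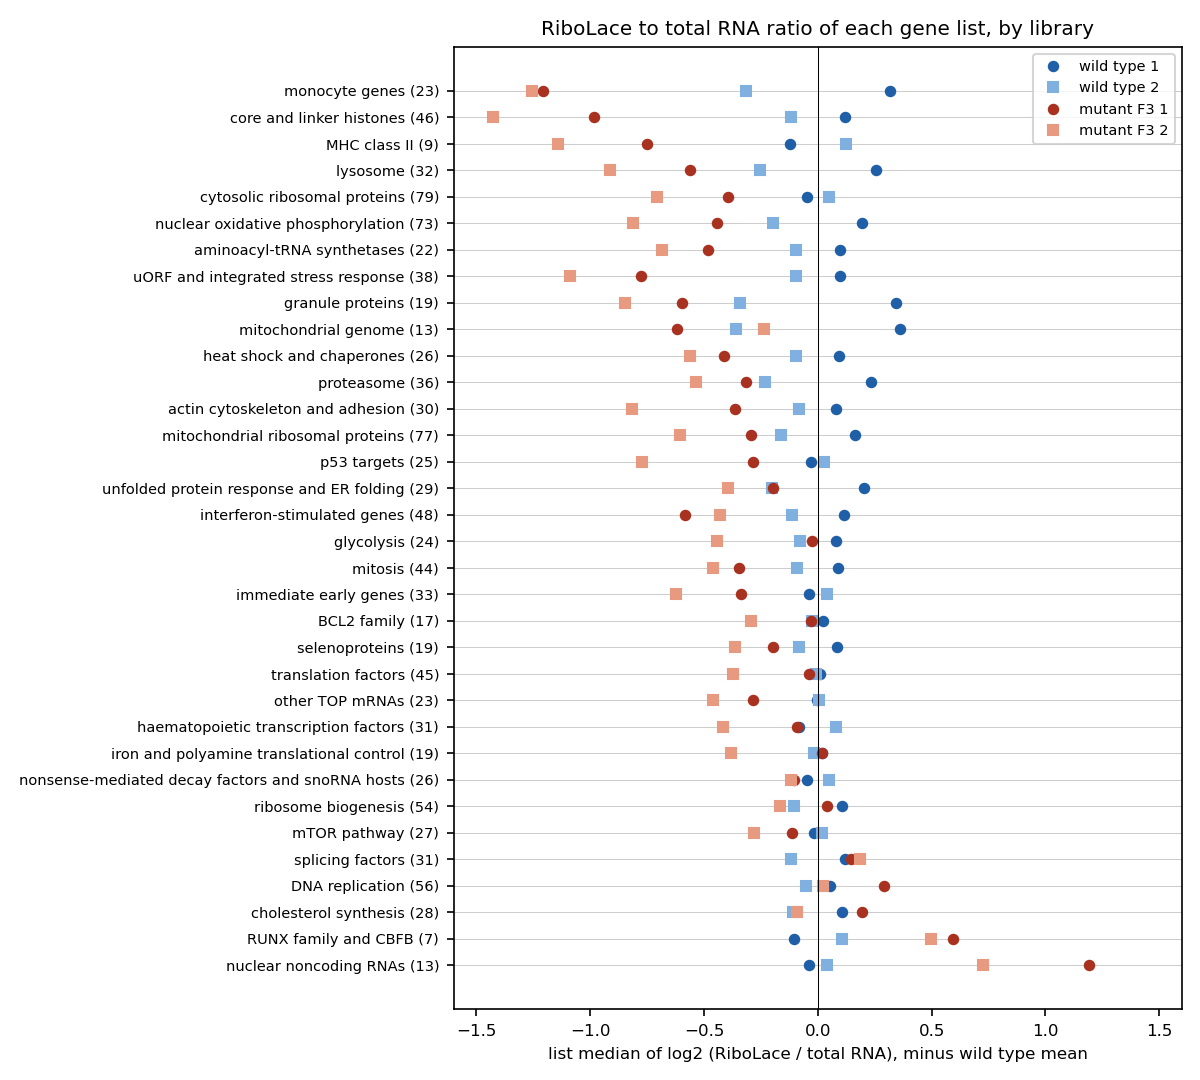
Median log2 ratio of RiboLace to total RNA of each gene list in each RiboLace library, less the mean of the wild type pair (x axis), with the number of genes tested in parentheses. Both F3 libraries lie below both wild type libraries for 24 of the 34 lists, above them for 3 and overlap for 7; within a genotype the shallower library 2 lies lower for 24 lists in wild type and for 31 in F3.

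The replicates of a genotype were also ordered. The second wild type library had the lower median in 24 of the 34 lists and the second F3 library in 31. These are the shallower libraries of each pair, and the second F3 library is the shallowest of the 4. The part of depth in these list medians was not tested.

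Several nuclear noncoding RNAs had a higher ratio in F3. MALAT1 is a long noncoding RNA held in nuclear speckles. Its RiboLace CPM were 437 and 571 in wild type and 2888 and 5117 in F3, and its total RNA CPM 797 and 554 in wild type and 810 and 638 in F3. Total RNA overlapped, whereas RiboLace was several-fold higher in both F3 libraries, a TE difference of 2.89 ± 0.35 (SE, adjusted p = 0.000364). NEAT1, the scaffold of paraspeckles, rose by 1.95 ± 0.34 (SE), and SNHG14 (1.43) and TUG1 (1.24) also rose. The list of 13 noncoding RNAs tested is mostly of nuclear RNAs but also holds cytosolic ones. In it these 4 rose and 1 fell, RN7SL2 (-1.72), the RNA of the signal recognition particle, which acts in the cytosol, and the median was 1.16. Of the 65 genes named by rule past the threshold, MALAT1 was the only one that stayed past it in each alternative that tested it. It took 0.0392% and 0.056% of the RiboLace counts of wild type and 0.28% and 0.543% of those of F3.

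Small nucleolar RNAs (snoRNAs), which guide modification of ribosomal RNA in the nucleolus, showed the same direction. They held 0.818% and 0.876% of RiboLace counts in wild type and 1.78% and 2.17% in F3. Of 142 snoRNA and scaRNA genes tested, 45 rose in RiboLace and 4 fell. In TE difference 3 rose and none fell, and 43 of the 142 had at least 4 reads in each group. SNORD104, of the box C/D kind that guides methylation, had RiboLace CPM of 58.6 and 59.0 in wild type and 133 and 126 in F3, and total RNA CPM of 7.45 and 5.29 against 3.85 and 3.76. Its TE difference was 1.88 ± 0.28 (SE). SNORA73B, of the H/ACA kind, had RiboLace CPM of 497 and 391 in wild type and 1549 and 1457 in F3, and a TE difference of 2.15 ± 0.38 (SE). These 2 were chosen for display after their values were seen, as the snoRNAs past the threshold with enough reads. In SNORD104 capitals mark the letters of the C and D boxes (TGATGA and CTGA), and in SNORA73B the ACA box.
SNORD104: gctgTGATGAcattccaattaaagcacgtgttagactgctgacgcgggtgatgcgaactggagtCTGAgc
SNORA73B: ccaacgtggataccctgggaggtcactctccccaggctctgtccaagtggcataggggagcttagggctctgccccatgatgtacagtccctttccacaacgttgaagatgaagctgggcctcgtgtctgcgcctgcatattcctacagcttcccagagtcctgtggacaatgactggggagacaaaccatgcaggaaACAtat
SNORD104 lies at chr17:64146083-64146152 within SNHG25, and SNORA73B at chr1:28508559-28508762 within SNHG3 and RCC1, on the same strand as these genes. Each was counted as a gene of its own, and SNORA73B had 1.03 to 2.23 CPM in total RNA where SNHG3 had 44.0 to 60.6. How reads that overlap 2 genes were assigned is not given. Whether host exons cover the snoRNAs was not checked. SNHG3 also rose, by 2.02 ± 0.33 (SE), and SNHG25 did not pass (0.81, adjusted p = 0.379). The RiboLace libraries thus held RNAs that are not translated. The shares of MALAT1 and of snoRNAs were higher in both F3 RiboLace libraries than in either of wild type, and their part in the other TE differences was not tested.

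Of the 74 genes with a higher ratio 59 were protein-coding. PDE4D, a phosphodiesterase that breaks down cyclic AMP, had RiboLace CPM of 71.8 and 114 in wild type and 202 and 474 in F3, with total RNA of 21.8 and 27.2 against 18.8 and 17.3. Its TE difference was 2.28 ± 0.38 (SE, adjusted p = 0.00445). ASF1B, a histone chaperone, rose by 1.70, the kinase CSNK1G1 by 1.69, PUS7L by 1.66, PSD3 by 1.73 and TENT5C, a poly(A) polymerase, by 2.26. TSPOAP1 (1.90), ZNF714 (1.88), EPM2AIP1 (1.85) and ANO7 (1.71) were also among the 12 largest rises. INO80C, a subunit of a chromatin remodelling complex, had the largest fold of these, 4.89 ± 1.04 (SE), and rested on 1 library. Its RiboLace reads were 13 and 4 in wild type and 18 and 153 in F3. KIF5C, a kinesin motor (4.29 ± 1.02 SE), had RiboLace CPM of 1.10 and 4.84 in wild type and 17.3 and 60.8 in F3. Its wild type RiboLace values rest on 2 and 5 reads, and its call was lost in 12 of 20 alternatives. Wild type RiboLace reads were also few for TENT5C (8 and 12) and ZNF714 (18 and 4). For EPM2AIP1 they were 21 and 7, and for ANO7 20 and 9. Among 31 splicing factors SRSF2 (1.12) and HNRNPA3 (1.36) rose, none fell, and the median was 0.10.

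The TE difference followed the length of the mRNA. Protein-coding genes were sorted by coding length into 4 groups of about equal size, as a description made after the values were known. The median TE difference was -0.31, -0.13, -0.03 and 0.15 from the shortest to the longest group. Of the shortest group 72 genes fell and 12 rose, and of the longest 17 fell and 23 rose. By 3′ UTR length the medians were -0.26, -0.19, -0.04 and 0.19, with 39 of the 59 rises in the longest group. Medians by GC content of the transcript stayed between -0.08 and -0.03. A hydrophobic start went with a lower median within each group of coding length, at -0.47 against -0.30 for genes with no hydrophobic stretch in the shortest and -0.14 against 0.19 in the longest. Many genes of the lists above are short, such as those of ribosomal proteins and histones. When each library's trend with exon length was removed, 201 genes passed, 152 of them among the 229, with 47 higher and 154 lower.

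**Figure D4:**
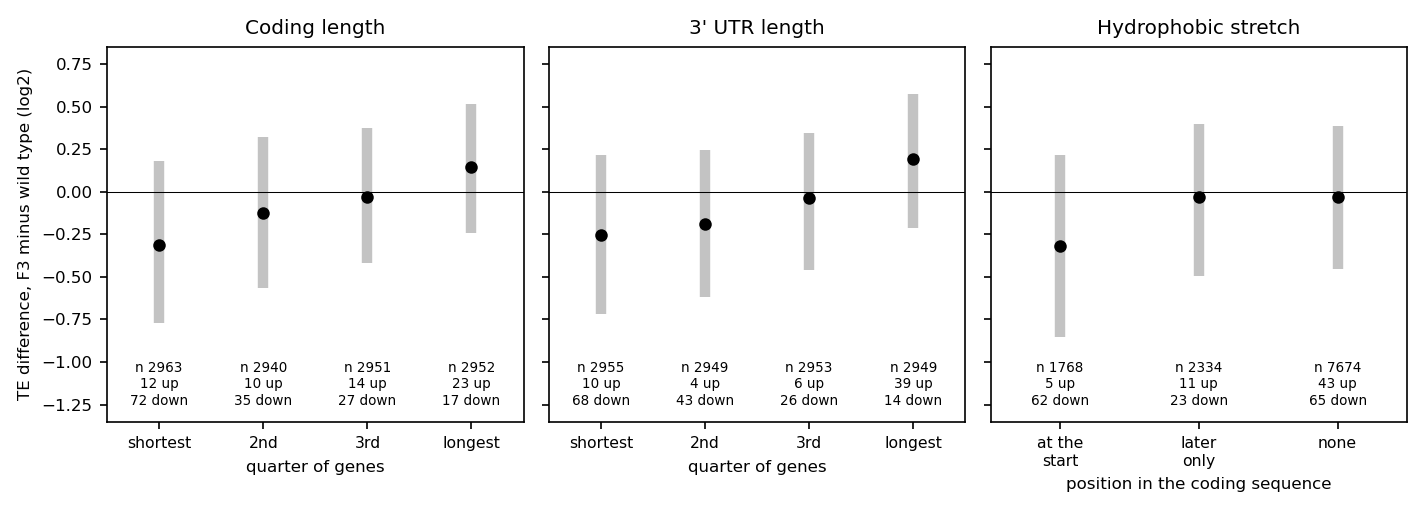
TE difference (log2, F3 minus wild type) of protein-coding genes in 4 groups of coding length and of 3′ UTR length and by the position of a hydrophobic stretch; points are medians, grey bars span the middle 50% of genes, and the text gives genes tested and genes that rose or fell. Medians climb from the shortest to the longest group, and genes with a hydrophobic start have the lowest median of the 3 hydropathy classes.

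The number of genes that passed depended on single libraries and on the choice of total RNA. Without the second wild type RiboLace library 1497 genes passed, and without the first 101. Without the first F3 RiboLace library 139 passed and without the second 29. Leaving out 1 of the total RNA libraries gave 24 and 25 for wild type and 66 and 33 for F3. With total RNA of line G7 in place of F3, 183 genes passed, of which 84 were among the 229, and with total RNA of F3 and G7 together 11 passed. SERPINH1 and HIST1H2AC passed under all alternatives except a 2-fold minimum. None of the 65 genes named by rule past the threshold changed direction under any alternative, but 20 of them were smaller by over 1.5 times under at least 1. With total RNA of G7 as the match, 12 were smaller by over 1.5 times and 33 of the 65 still passed, and LILRB4 stood at -0.41 (adjusted p = 0.622).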

How the data were processed

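Raw read counts per gene were deposited by the authors in 1 table of 14 libraries, of which 8 were used, with 2 libraries per group. GRCh38, STAR 2.6.0b and DESeq2 are named, without roles, per the submitters' processing notes. For the counting program, strand use and RNA selection the sources used here give nothing, so how reads of overlapping or antisense genes were assigned is not known. Symbols, types and coordinates came from GENCODE release 29, which held 57433 of 58037 gene IDs. Counts were tested with edgeR 4.0.16 (R 4.3.3; filterByExpr, TMM, quasi-likelihood F-test, Benjamini-Hochberg adjustment over all genes tested, threshold 0.05) in 1 fit of 4 group means. The TE difference, RiboLace difference and total RNA difference are contrasts of that fit, which estimates 1 spread for each gene over both assays, although RiboLace replicates varied more, and so may understate RiboLace error. The SE is the absolute log2 fold change over the square root of F. CPM are scaled by TMM. The script was tested on simulated data.

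The text names, by rule, the 12 largest rises and the 12 largest falls of protein-coding genes that passed and had at least 4 reads in each group, at least 50 RiboLace reads and no overlap, 3 each way of other types, 10 fixed genes (ATF4, BCL2, BCL2L1, CDK6, CEBPA, MCL1, MYB, MYC, RUNX1 and SPI1), and up to 3 members of each of 39 lists. The other genes named, such as GRN, SNORD104 and further members of lists, were chosen after their values were seen. The members and lists were chosen with earlier results of these data known. Alternatives were other scalings, filters and tools (DESeq2 1.42.0, limma 3.58.1), other gene sets, the total RNA of line G7, a replicate block, a 2-fold minimum, removal of the length trend and each library left out. Some genes and 1 sequence are not reported here.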

Additional observations from a re-analysis of the deposited data

Results flagged for a closer look

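The genotype difference depended on the assay, by the test of the interaction, for 229 genes. It went in opposite directions in the assays, past the threshold in each, for 22 genes, of which 20 had at least 4 reads in every group. Total RNA rose and RiboLace fell in F3 for 18 of them. Among these, the TE differences on the log2 scale were -3.70 for FCER2, -2.97 for HIST1H4C, -2.50 for SERPINF1, -2.31 for HIST1H2AC and -2.29 for ASS1. They were -1.83 for LY86, -1.82 for LILRB4, -1.77 for ASNS, -1.63 for EMP3, -1.59 for GRN and -1.55 for SDCBP. They were -1.39 for CARS, -1.37 for SEL1L3, -1.32 for PCK2, -1.28 for CD74 and -1.26 for TAP1. The other 2 went the opposite way, SNORD104 at 1.88 and TSPOAP1 at 1.90.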

How the results depend on the processing

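Against 229 genes past the threshold for the TE difference, library totals alone as scaling gave 151 (72 higher, 79 lower), no filter on low counts 527, DESeq2 634, limma-voom with quality weights 41, protein-coding genes alone 361, and leaving out mitochondrial, ribosomal protein, small and nuclear RNA genes 347. Total RNA of F3 and G7 together gave 11 and a 2-fold minimum 1. Higher calls made up 32.3% of the 229, 47.7% with library totals 46.6% with a stricter filter on RiboLace reads and 23.4% with the length trend removed. Leaving out 1 library gave 24 to 1497. For the RiboLace difference, 1965 genes became 508 with limma-voom and 705 to 3036 without 1 library, and higher calls were 56.5% with library totals against 45.8%. For the total RNA difference, 1264 became 791 with the stricter filter, 2696 with limma-voom, 496 with F3 and G7 together, and 218 to 2334 without 1 library. The median of all genes moved between -0.18 and 0.09. Among 65 named genes past the threshold, 820 of 1342 values stayed past it and none reversed.

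Of the genes that had not passed, RUNX1 was at -0.04319 with total RNA of G7. CEBPA was at -0.015 with the replicate block and -0.2696 to 0.2801 without 1 library, and MCL1 at -0.005094 to 0.2898 without 1 library. ATF4 was at 0.02274 with library totals, 0.102 with total RNA of G7, 0.06024 with the length trend removed and -0.492 to 0.127 without 1 library. With DESeq2, BCL2 (0.91), RUNX1 (0.61) and MYC (-0.55) passed. The causes were not tested. List medians ranged from -1.36 to -0.24 for granule proteins, -0.53 to -0.03 for the unfolded protein response and -0.06 to 0.23 for splicing factors, and from -1.64 to -1.07 for histones.

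Deviations of libraries with the same number in their titles correlated at -0.0492 to 0.0594 over 6 pairs of groups. Counting noise over all genes tested lowers such correlations, so they cannot decide whether the samples were paired. The library names number F3 total RNA otherwise, and that numbering was not tried. With the replicate block, 263 genes passed for the TE difference, 1942 for RiboLace and 907 for total RNA. The depth of the second F3 RiboLace library limits what could be detected.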
